A study of Mus musculus with 2 samples.

Results

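Car9-positive collagen-expressing cells without Ptprc are cells from tumours that carry transcripts of interstitial collagens and of carbonic anhydrase 9, a surface enzyme that turns carbon dioxide into bicarbonate and protons and is induced when oxygen is low. They were chosen by their UMIs, the molecular tags that count captured transcripts: at least 10 UMIs of Col1a1, Col1a2 and Col3a1 together, 0 UMIs of Ptprc, which encodes the leukocyte surface protein CD45, and at least 2 UMIs of Car9. Cells entered with 300 or more genes, 5000 or more UMIs and no more than 10% mitochondrial UMIs, 14121 of 20512 deposited barcodes. Of these, 887 met the collagen and Ptprc conditions, called the collagen gate here, and 366 of the 887 were Car9-positive. They were compared with the 440 gate cells that had 0 Car9 UMIs (Car9-0 cells), and the 81 gate cells with 1 Car9 UMI belonged to neither class.

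The cells came from tumours of mice bearing AB1-HA, a mouse mesothelioma line. One library was made from mice given an anti-VEGF antibody, which targets the growth factor that Vegfa encodes, and 1 from mice given a control antibody, as 10x Genomics 3′ libraries of live cells that had been sorted for CD45. The sources used here do not give the strain, age, sex or number of animals, or the dose of either antibody. With 1 library per antibody no test between antibodies could be made, and no spread between animals is known. Contrasts between Car9-positive and Car9-0 cells use the value that chose the cells, so they are given as a description, side by side in both libraries. Intervals in brackets are exact 95% intervals (Clopper-Pearson for shares, conditional binomial for ratios) and cover counting error only. The 2 libraries shared 35 barcode sequences, none of them among the Car9-positive cells, and were kept apart.

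The sort label and the cells disagree: the sort kept CD45-positive cells, and these cells were required to have no Ptprc UMI at a median depth of 43399 UMIs in the anti-VEGF library and 46630 UMIs in the control library. How they came through the sort was not tested. Collagen-expressing cells in which Ptprc was detected were present too, and Car9 of at least 2 UMIs was found in 61.7% of those in the anti-VEGF library (95 of 154) and in 20.4% of those in the control library (22 of 108).

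Car9 is a classic target of the hypoxia-inducible factors (HIF). These are dimers of an oxygen-labile alpha subunit, such as Hif1a, and a stable partner, Arnt. In oxygenated cells the prolyl hydroxylases encoded by Egln1, Egln2 and Egln3 mark the alpha subunit for destruction through Vhl, and in hypoxia the dimer accumulates and binds DNA at sites with the core ACGTG or GCGTG, inducing glucose uptake, glycolysis, pH control, mitophagy and angiogenic factors. In tumours Car9 is widely used as a tissue marker of hypoxia.

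Promoters are shown for Car9 and for the 3 genes, among those with an entry in the RefSeq promoter table, that ranked highest in Car9-positive over Car9-0 cells, because genes of this group were higher with Car9 in both libraries. Each window runs from 250 bases before to 50 bases after the annotated start on GRCm38.p6, printed 5′ to 3′ on the gene's strand. Capitals mark ACGTG or GCGTG read on either strand, so a match on the other strand appears as its reverse complement.
Car9: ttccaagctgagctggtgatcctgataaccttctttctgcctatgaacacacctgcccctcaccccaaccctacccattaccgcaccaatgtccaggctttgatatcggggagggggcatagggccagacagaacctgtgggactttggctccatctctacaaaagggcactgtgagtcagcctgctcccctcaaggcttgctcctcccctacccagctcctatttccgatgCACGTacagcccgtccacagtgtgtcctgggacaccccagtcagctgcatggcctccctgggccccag
Ankrd37: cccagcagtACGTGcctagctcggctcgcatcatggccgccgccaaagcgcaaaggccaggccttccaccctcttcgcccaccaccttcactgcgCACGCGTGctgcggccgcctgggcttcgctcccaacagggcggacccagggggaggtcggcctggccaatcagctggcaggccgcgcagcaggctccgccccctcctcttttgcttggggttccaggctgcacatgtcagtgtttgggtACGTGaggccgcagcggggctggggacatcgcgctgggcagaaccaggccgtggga
Bnip3: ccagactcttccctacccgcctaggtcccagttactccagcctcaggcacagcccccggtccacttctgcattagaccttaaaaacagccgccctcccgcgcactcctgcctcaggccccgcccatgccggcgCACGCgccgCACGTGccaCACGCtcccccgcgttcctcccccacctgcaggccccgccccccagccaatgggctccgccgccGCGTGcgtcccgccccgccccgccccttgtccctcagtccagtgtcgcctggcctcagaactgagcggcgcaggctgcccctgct
Eno2: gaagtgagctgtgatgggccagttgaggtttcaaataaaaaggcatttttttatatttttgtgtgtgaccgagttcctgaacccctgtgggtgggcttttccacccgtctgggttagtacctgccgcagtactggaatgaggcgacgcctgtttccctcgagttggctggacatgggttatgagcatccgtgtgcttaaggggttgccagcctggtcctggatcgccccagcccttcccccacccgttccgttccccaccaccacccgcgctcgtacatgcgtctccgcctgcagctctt
The Car9 window lies at chr4:43506776-43507075 (plus strand) and holds 1 match, 18 bases before the start. The Ankrd37 window, chr8:45999801-46000100 (minus strand), lies inside the annotated extent of the gene and holds 4 matches, the nearest 6 bases before the start. The Bnip3 window, chr7:138909457-138909756 (minus strand), holds 5 matches between 117 and 35 bases before the start, of which 2 overlap in a CACGTG. The Eno2 window, chr6:124769624-124769923 (minus strand), holds none. Of the 20 genes past 2-fold higher in both libraries, described further on, 19 had an entry. Either 5-letter core was held by 16 of the 19 (84.2%), against 46.7% of all 27025 genes with an entry. A gene counted if any of its entries held the core. ACGTG or its complement was in 68.4% of the 19 and in 21.8% of all these genes, and GCGTG or its complement in 63.2% and 35.2%. The 27025 include genes not measured here. The share among measured genes alone was not computed, so the gap is not a measure of enrichment among them. A match of letters is a description of the sequence and not a bound site. Ndrg1 and Msln had no entry.

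Car9-positive cells were more frequent in the anti-VEGF library. They numbered 294 of 539 gate cells there, 54.5% (50.2 to 58.8), and 72 of 348 gate cells in the control library, 20.7% (16.6 to 25.3). As a share of all filtered cells they made up 4.37% (3.89 to 4.88) of the anti-VEGF library and 0.975% (0.764 to 1.23) of the control library. The Car9-0 cells of the same gate were 203 cells or 3.01% (2.62 to 3.45) of the anti-VEGF library and 237 cells or 3.21% (2.82 to 3.64) of the control library. Among the positive cells, Car9 itself had a median of 9 UMIs per cell in the anti-VEGF library (quartiles 4 and 16, maximum 57) and of 5 UMIs in the control library (quartiles 2 and 13, maximum 31). Cells with exactly 2 Car9 UMIs, just inside the rule, numbered 35 and 19 in the anti-VEGF and control libraries, and cells with 1 Car9 UMI, just outside it, 42 and 39.

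**Figure D1:**
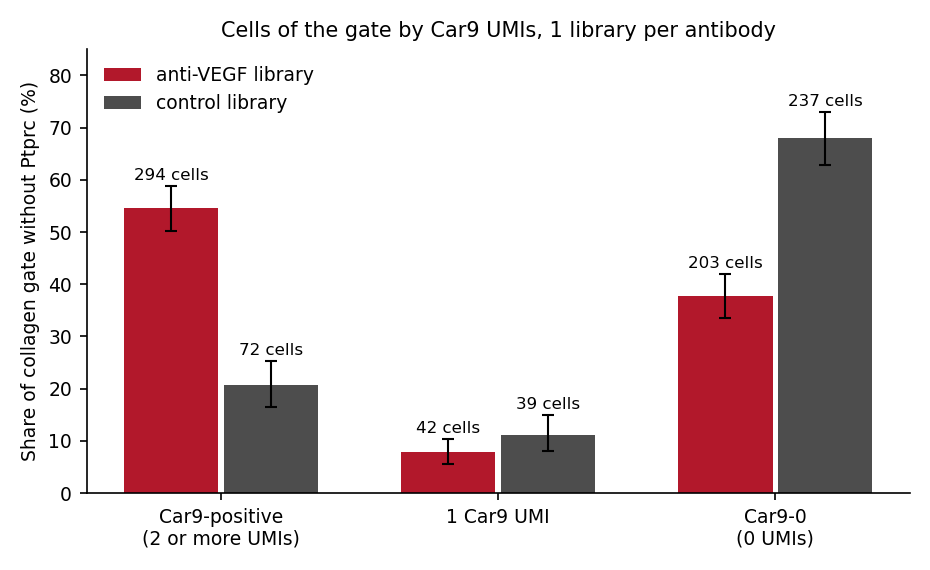
Share of the collagen gate without Ptprc (percent, y axis) held by Car9-positive cells, cells with 1 Car9 UMI and Car9-0 cells (x axis) in the anti-VEGF and control libraries, with exact 95% binomial intervals as error bars and the number of cells above each bar. Car9-positive cells make up 54.5% of the gate in the anti-VEGF library and 20.7% in the control library, and Car9-0 cells 37.7% and 68.1%.

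The difference between libraries was also present at equal depth. After each cell was thinned to 5000 UMIs, a Car9 UMI remained in 34.7% (30.7 to 38.9) of anti-VEGF gate cells and 11.8% (8.59 to 15.6) of control gate cells, against 62.3% and 31.9% before thinning. Macrophage-gated cells (Ptprc of at least 1 UMI and at least 10 UMIs of the complement genes C1qa, C1qb and C1qc) gave the level seen in leukocytes of the same tubes. There a Car9 UMI remained after thinning in 4.53% of anti-VEGF cells and 3.61% of control cells, at unthinned median depths of 25263 and 25235 UMIs. Some macrophage-gated cells also met the collagen minimum. Before thinning, at least 2 Car9 UMIs were found in 4.43% of anti-VEGF and 2.93% of control macrophage-gated cells. Among those below the collagen minimum the shares were 3.09% and 2.78%. In the collagen gate the thinned share was therefore above the macrophage level in both libraries. Of all filtered cells with at least 2 Car9 UMIs, the Car9-positive collagen cells made up 44.5% in the anti-VEGF library (294 of 660) and 26.5% in the control library (72 of 272).

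Depth did not separate the classes by much. Median UMIs per cell were 43399 in anti-VEGF and 46630 in control Car9-positive cells (ranges 7343 to 134889 and 9627 to 86646), and 40497 and 44459 in Car9-0 cells. Median mitochondrial shares in Car9-positive cells were 3.25% and 3.67%. Collagen UMIs, which the rule used, had medians of 64.5 and 88 in the anti-VEGF and control Car9-positive cells, against 99 and 91 in the Car9-0 cells. Levels below are CPM, a gene's UMIs summed over the cells of a class in 1 library and scaled to the same total for every class, and a gene was measured when it had at least 30 UMIs.

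The markers named for these cells were present beside Car9. Msln, which encodes the surface glycoprotein mesothelin of mesothelial and mesothelioma cells, stood at 117 CPM in anti-VEGF and 99.1 CPM in control Car9-positive cells, against 137 CPM in both Car9-0 classes. An Msln UMI was found in 86.4% (81.9 to 90.1) of anti-VEGF and 88.9% (79.3 to 95.1) of control Car9-positive cells, and in 3.44% and 2.16% of macrophage-gated cells. At 5000 UMIs per cell the Msln level was 108 and 128 CPM in the positive cells of the anti-VEGF and control libraries, and 2.29 and 1.55 CPM in macrophage-gated cells. Col3a1, which was in the rule, was found in 99.3% of anti-VEGF and in every control Car9-positive cell. Msln, unlike Car9 and Col3a1, was not used to choose the cells.

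Other identity genes gave a mesenchymal pattern, with few mesothelial genes beside Msln. Of 18 mesothelial genes listed, 5 were measured in both libraries. At 0 were 10 in anti-VEGF and 9 in control Car9-positive cells, among them Wt1, Upk1b, Lrrn4, Bnc1 and Muc16. The listed keratin gene Krt8 reached at least 5 UMIs in 10.2% of anti-VEGF and 6.94% of control Car9-positive cells, and in 12.8% and 12.2% of Car9-0 cells. A sum of 0 UMIs over a class allows a level of up to 0.217 CPM in anti-VEGF and 0.861 CPM in control Car9-positive cells (3 counts, counting error only). Cav1, which encodes the membrane scaffold caveolin 1, reached 653 and 717 CPM and Pdpn, podoplanin, 40.1 and 50.8 CPM in the anti-VEGF and control Car9-positive cells. The epithelial adhesion genes Cdh1 and Epcam were at 0, whereas Vim, vimentin, stood at 6616 and 6317 CPM, and Twist1, a transcription factor of mesenchymal cells, at 238 and 206 CPM. Cd34, a surface sialomucin of progenitor and stromal cells, was found in 99.3% and 98.6% of the anti-VEGF and control Car9-positive cells. Both Msln and Cd34 were at 2 UMIs or more in 70.7% and 68.1% of them, and in 64.0% and 65.8% of the Car9-0 cells. The data therefore describe Msln- and Cd34-expressing, vimentin-rich, collagen-expressing cells. Msln and Cd34 together were not particular to the Car9-positive cells. The transcripts alone do not say which of the cells descend from AB1-HA.

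Markers of other cell types were low in the class sums. The 12 macrophage genes summed to 410 CPM in anti-VEGF and 340 CPM in control Car9-positive cells, against 573 and 445 CPM in Car9-0 cells. Per cell their medians were alike, 242 and 246 CPM in Car9-positive and Car9-0 cells of the anti-VEGF library and 316 and 317 CPM in the control library. The highest single cells had 8110 and 17465 CPM in the anti-VEGF library and 1113 and 10355 CPM in the control library. Gene by gene, macrophage transcripts in the Car9-positive cells were at 0.775% to 2.59% of their macrophage-gate level in the anti-VEGF library and at 0.508% to 1.80% in the control library. The 9 endothelial genes summed to 1.67 and 5.17 CPM in the anti-VEGF and control Car9-positive cells, with Cdh5, Kdr and Emcn at 0 in both, and the contractile gene Acta2 stood at 0.217 CPM and at 0. Fibroblast genes differed more: Dcn and Lum together, which encode small leucine-rich matrix proteoglycans, reached at least 5 UMIs in 10.9% of anti-VEGF and 5.56% of control Car9-positive cells, against 22.7% and 18.1% of Car9-0 cells. The Car9-0 class thus held a larger share of Dcn- or Lum-positive cells in both libraries.

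Hypoxia response genes were higher in Car9-positive than in Car9-0 cells of both libraries. Of 30 listed hypoxia targets, 26 were measured, 23 were above a ratio of 1 in both libraries and 8 were past 2-fold in both. The median log2 ratio was 0.96 in the anti-VEGF and 0.91 in the control library, beside -0.13 and -0.06 over all 10385 genes measured, of which 19.5% were above 1 in both, 20 (0.193%) were past 2-fold higher in both and 41 (0.395%) past 2-fold lower in both. Under TMM or median-of-ratios scaling these counts were 29 higher and 35 lower. The 8 were Ankrd37, Bnip3, Ndrg1, Ero1l, Higd1a, Egln3, Fam162a and P4ha2. Since Car9 chose the cells and belongs to the same programme, these counts describe what came with it.

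Ankrd37, an ankyrin repeat protein known as a HIF target, had 165 CPM in Car9-positive and 39.6 CPM in Car9-0 cells of the anti-VEGF library, a ratio of 4.15 (3.71 to 4.66), and 83.3 and 21.3 CPM in the control library, a ratio of 3.91 (3.28 to 4.67). Bnip3, a mitochondrial receptor for mitophagy, had 672 and 196 CPM in Car9-positive and Car9-0 cells of the anti-VEGF library, 3.43-fold (3.26 to 3.62), and 489 and 122 CPM in the control library, 3.99-fold (3.72 to 4.29). Ndrg1, a stress-responsive growth regulator, was at 458 and 142 CPM in the anti-VEGF library, 3.22-fold, and at 246 and 83.1 CPM in the control library, 2.96-fold. All 3 were found in most positive cells, Bnip3 in 99.7% of anti-VEGF and 97.2% of control Car9-positive cells, so the sums did not rest on a few cells.

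Mitochondrial and protein-folding targets gave like values. Higd1a, a protein of the inner mitochondrial membrane, was at 563 and 172 CPM in Car9-positive and Car9-0 cells of the anti-VEGF library and at 382 and 146 CPM in the control library. Fam162a, a mitochondrial HIF target, was at 683 and 255 CPM and at 512 and 190 CPM. Ero1l, the oxidase that drives disulphide formation in the endoplasmic reticulum, was at 428 and 131 CPM in the anti-VEGF library, 3.27-fold (3.07 to 3.49), and at 165 and 62.9 CPM in the control library, 2.62-fold (2.34 to 2.93).

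The oxygen-sensing machinery itself was split. Egln3, the hydroxylase gene that HIF induces as feedback, was at 79.2 and 25.3 CPM in Car9-positive and Car9-0 cells of the anti-VEGF library, 3.13-fold, and at 44.2 and 14.8 CPM in the control library, 2.99-fold. Egln1 was at 234 and 119 CPM and at 170 and 106 CPM. Hif1a transcripts did not keep a direction: 74.1 and 88.6 CPM in Car9-positive and Car9-0 cells of the anti-VEGF library, and 88.1 and 76.9 CPM in the control library. Of the 7 measured HIF factors and sensors, 2 were above 1 in both libraries (Egln1 and Egln3) and 2 below 1 in both, against 19.5% and 47.8% of all genes. HIF alpha subunits are controlled mainly at the protein level, which these libraries do not measure.

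Some known HIF targets were not higher. Angptl4, a secreted lipase inhibitor, was lower in the Car9-positive cells, at 31.7 against 46.7 CPM in Car9-0 cells of the anti-VEGF library, 0.679-fold (0.592 to 0.779), and at 50.3 against 72.1 CPM in the control library, 0.697-fold (0.588 to 0.822). Loxl2, a collagen crosslinking oxidase, was also below 1 in both, at 5.79 and 10.1 CPM and at 0.574 and 3.49 CPM. Vegfa, whose product the tested antibody binds, was at 149 and 91.6 CPM in Car9-positive and Car9-0 cells of the anti-VEGF library, 1.63-fold (1.5 to 1.77), and at 139 and 80.5 CPM in the control library, 1.73-fold (1.55 to 1.94). Vegfa thus lay under the 2-fold mark in both libraries. Its receptor gene Kdr was at 0 in the Car9-positive cells, Flt1 stood at 1.23 and 1.44 CPM in the anti-VEGF and control libraries, and the co-receptor gene Nrp2 at 112 and 106 CPM.

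Glucose uptake and glycolysis genes were higher along almost the whole pathway. Of 22 listed, 19 were measured, 18 were above 1 in both libraries and 6 past 2-fold in both (Slc2a1, Gpi1, Pfkl, Pgk1, Eno2 and Pdk1), with median log2 ratios of 0.94 in each library. Of all genes, 19.5% were above 1 in both and 0.193% past 2-fold higher in both. Slc2a1, the glucose transporter GLUT1, was at 190 and 73.6 CPM in Car9-positive and Car9-0 cells of the anti-VEGF library, 2.58-fold (2.37 to 2.82), and at 121 and 54.1 CPM in the control library, 2.23-fold (1.97 to 2.53). Pgk1, phosphoglycerate kinase, was at 2858 and 997 CPM, 2.87-fold (2.80 to 2.93), and at 1971 and 762 CPM, 2.59-fold (2.5 to 2.67). Eno2, an enolase best known from neurons, was at 92.8 and 32.0 CPM and at 57.1 and 15.9 CPM. Pdk1, the kinase that keeps pyruvate out of mitochondria, was at 67.5 and 28.7 CPM and at 61.2 and 24.9 CPM.

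The most abundant enzymes had smaller ratios. Gapdh was at 8909 and 4724 CPM in Car9-positive and Car9-0 cells of the anti-VEGF library, 1.89-fold, and at 7876 and 4739 CPM in the control library, 1.66-fold. Ldha, which makes lactate, was at 2567 and 1358 CPM, 1.89-fold, and at 2144 and 1116 CPM, 1.92-fold. Both lay short of the 2-fold mark while all members of the pathway summed to 27099 and 13749 CPM in Car9-positive and Car9-0 cells of the anti-VEGF library and to 22239 and 12283 CPM in the control library.

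Acid and bicarbonate handling, the task of Car9, gave no such group pattern. Of 12 listed genes, 6 were measured, 2 above 1 in both libraries and 4 below 1 in both, against 19.5% and 47.8% of all genes. Bsg, the chaperone of monocarboxylate transporters, was at 1394 and 817 CPM in Car9-positive and Car9-0 cells of the anti-VEGF library, 1.71-fold (1.66 to 1.75), and at 1167 and 772 CPM in the control library, 1.51-fold (1.46 to 1.57). The lactate exporter gene Slc16a3, a known HIF target, was nearly undetected, at 1.23 CPM in anti-VEGF and 0.861 CPM in control Car9-positive cells, while Slc16a1 stood at 49.2 and 65.0 CPM in Car9-positive and Car9-0 cells of the anti-VEGF library and at 59.4 and 63.0 CPM in the control library. Car12, the other membrane carbonic anhydrase tied to hypoxia, was at 2.82 and 1.72 CPM in anti-VEGF and control Car9-positive cells. Car4 and Car14, membrane-bound too, were at 0 in the Car9-positive cells of both libraries.

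Nuclear genes of oxidative phosphorylation went the other way by a small amount. All 20 were measured, 17 were below 1 in both libraries, against 47.8% of all genes, and none reached 2-fold, with median log2 ratios of -0.22 in the anti-VEGF and -0.28 in the control library. Cox6c, a cytochrome oxidase subunit, was at 640 and 794 CPM in Car9-positive and Car9-0 cells of the anti-VEGF library and at 844 and 1155 CPM in the control library. The summed level was 6677 and 7591 CPM in the anti-VEGF library and 7307 and 8491 CPM in the control library. The medians over all genes were -0.13 and -0.06 on the same scale.

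Of the other genes past 2-fold higher in both libraries, which lay outside both lists, 2 were ranked among the highest. Mif, macrophage migration inhibitory factor, was at 2584 and 1151 CPM in Car9-positive and Car9-0 cells of the anti-VEGF library, 2.25-fold (2.20 to 2.30), and at 2219 and 1044 CPM in the control library, 2.13-fold (2.07 to 2.19). Mt1, a metal-binding metallothionein, was at 3651 and 1337 CPM, 2.73-fold (2.68 to 2.79), and at 1168 and 546 CPM, 2.14-fold (2.05 to 2.22). The remaining 4 were Pgm2, Itpk1, Asgr1 and Krt13, named after their values were seen, the last pair found in 12.6% to 29.2% of the Car9-positive cells of either library.

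**Figure D2:**
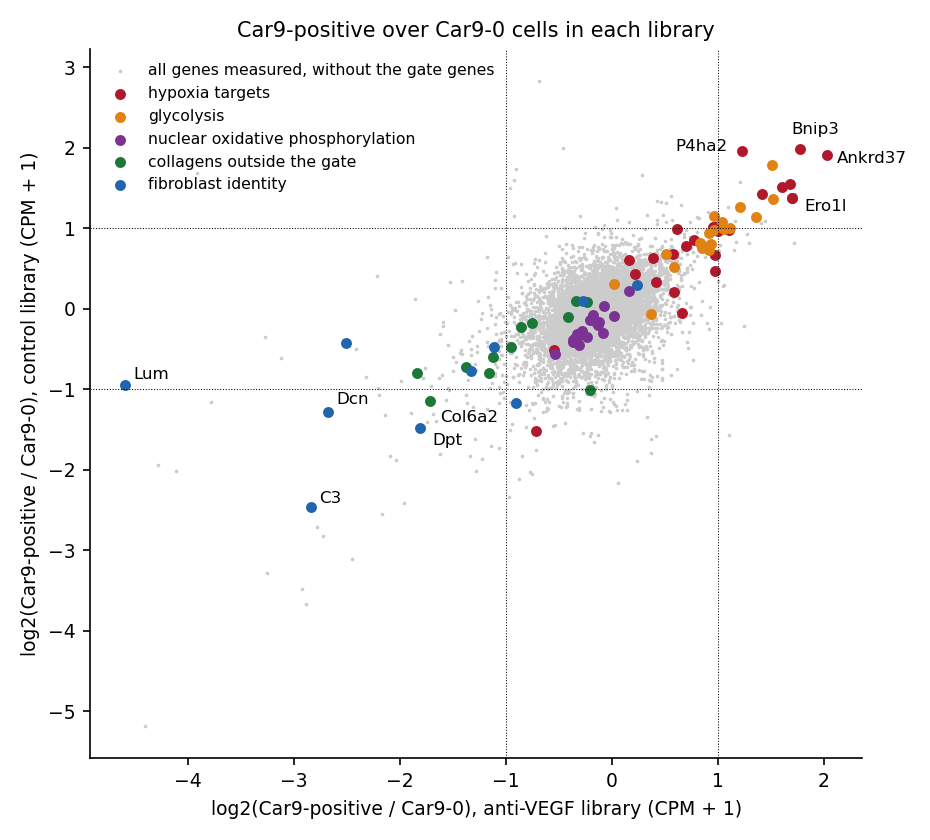
Each point is a gene measured in both libraries, with the log2 ratio of Car9-positive over Car9-0 cells in the anti-VEGF library (x axis) and in the control library (y axis), both with 1 CPM added, and dotted lines at 2-fold. Hypoxia targets and glycolysis genes lie mostly in the upper right, with list medians of 0.96 and 0.94 on the x axis, and fibroblast and collagen genes mostly in the lower left.

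The summed hypoxia and glycolysis lists were graded with Car9 and did not switch at the threshold. In the anti-VEGF library the hypoxia list summed to 2244, 2702, 3671, 4098 and 5739 CPM in gate cells with 0, 1, 2, 3 to 5 and 6 or more Car9 UMIs, and in the control library to 1762, 2163, 2848, 3252 and 4596 CPM. The glycolysis list summed to 13749, 16898, 19704, 22623 and 29652 CPM in the anti-VEGF library and to 12283, 15249, 17305, 20662 and 25536 CPM in the control library. Every step was upward in both libraries for both lists. Cells with 1 Car9 UMI, just outside the rule, lay between the Car9-0 cells and those with 2 UMIs.

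Single genes followed these grades in part. Of the 26 measured hypoxia targets, 11 in the anti-VEGF and 7 in the control library were higher at every step, and 18 and 16 were highest in cells with 6 or more Car9 UMIs. Of the 19 measured glycolysis genes, 14 and 12 were higher at every step. Bnip3, one of those without a break, stood at 196, 294, 425, 493 and 766 CPM from 0 to 6 or more Car9 UMIs in the anti-VEGF library and at 122, 242, 331, 365 and 632 CPM in the control library. Ankrd37 stood at 39.6, 59.8, 87.2, 113 and 193 CPM, and in the control library at 21.3, 46.5, 75.9, 62.0 and 97.9 CPM, where the 19 cells with 3 to 5 UMIs were below the 19 cells with 2. Vegfa broke the order in both libraries, at 91.6, 105, 176, 111 and 156 CPM in the anti-VEGF library and 80.5, 114, 96.6, 100.3 and 181 CPM in the control library. Msln was not graded this way, at 137, 136, 112, 132 and 113 CPM in the anti-VEGF library and 137, 99.6, 129, 95.8 and 85.8 CPM in the control library.

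**Figure D3:**
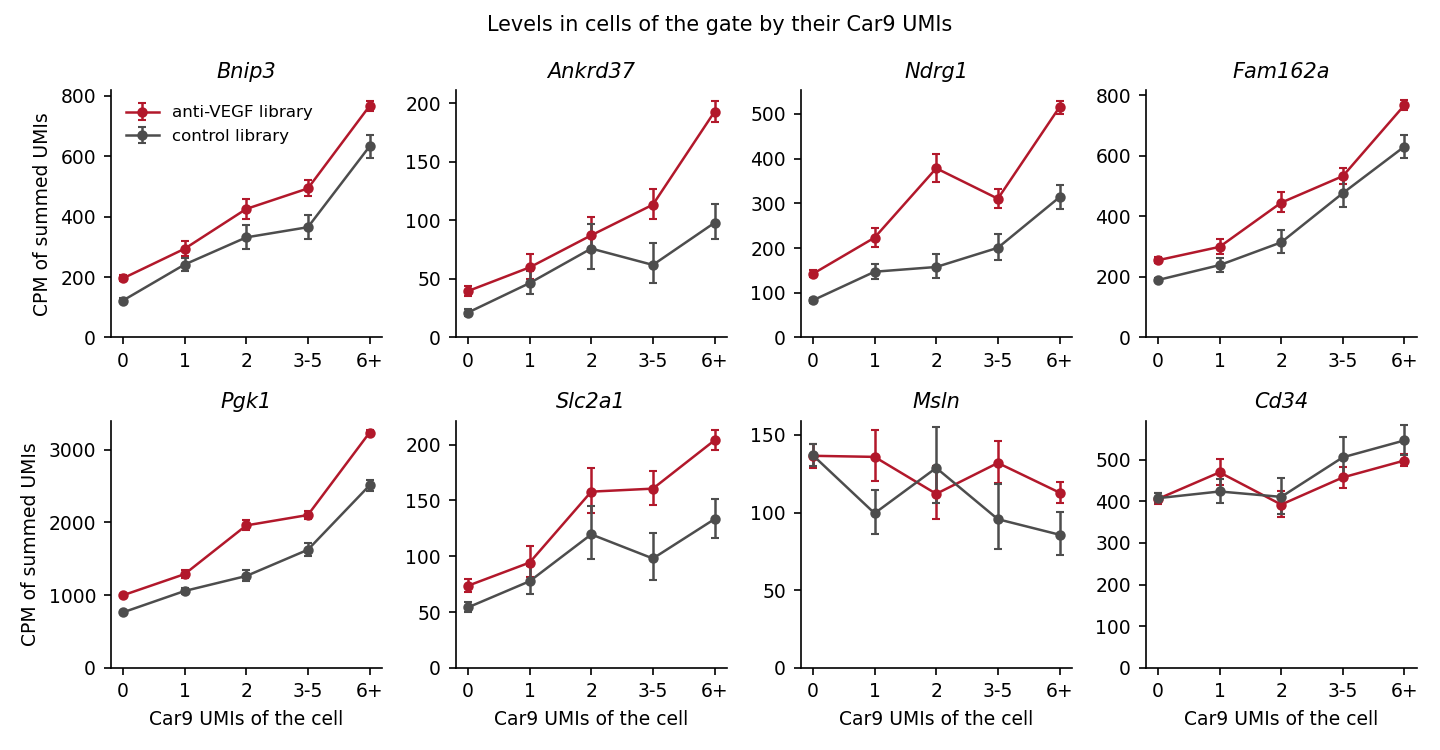
CPM of 8 genes (y axis) in gate cells grouped by their Car9 UMIs (x axis, 0 to 6 or more) in the anti-VEGF and control libraries, with exact Poisson 95% intervals as error bars. Bnip3 ends at 766 CPM in anti-VEGF and 632 CPM in control cells with 6 or more Car9 UMIs, against 196 and 122 CPM at 0, while Msln ends at 113 and 85.8 CPM, against 137 CPM in both.

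Within the Car9-positive cells alone the grading continued. Over the 294 anti-VEGF and the 72 control cells, Spearman's rho between Car9 and Pgk1 per-cell CPM was 0.55 and 0.59, between Car9 and Fam162a 0.55 and 0.59, between Car9 and Mif 0.54 and 0.57, and between Car9 and Bnip3 0.50 and 0.53. Cells of 1 library share its free RNA and their own depth, and cells are not replicates, so these values are a description. Msln had a rho of -0.23 in the anti-VEGF and -0.21 in the control library, and Angptl4 of -0.12 and -0.14. The lowest values in the anti-VEGF library were those of the cell cycle genes Top2a and Mki67, -0.33 each, beside -0.13 and -0.17 in the control library.

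Cell by cell, the classes overlapped least in the hypoxia and glycolysis lists of the 5 lists compared this way. The hypoxia list had a median of 5030 CPM per cell in Car9-positive and 1744 CPM in Car9-0 cells of the anti-VEGF library, and of 3759 and 1497 CPM in the control library. Of the Car9-positive cells, 4.42% in the anti-VEGF and 5.56% in the control library were below the Car9-0 median, and of the Car9-0 cells 9.85% and 4.64% were above the median of the Car9-positive cells. The overlap was nonetheless wide in the anti-VEGF library, where the upper quartile of the Car9-0 cells, 2858 CPM, lay above the 10th percentile of the Car9-positive cells, 2213 CPM. For the proliferation, fibroblast and macrophage lists, 47.3% to 64.0% of Car9-0 cells lay above the median of the Car9-positive cells. Some Car9-0 cells therefore carried a high hypoxia list without a Car9 UMI, up to 18448 CPM in the anti-VEGF and 6430 CPM in the control library. The glycolysis list had per-cell medians of 26810 and 12313 CPM in Car9-positive and Car9-0 cells of the anti-VEGF library and of 22395 and 11051 CPM in the control library.

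**Figure D4:**
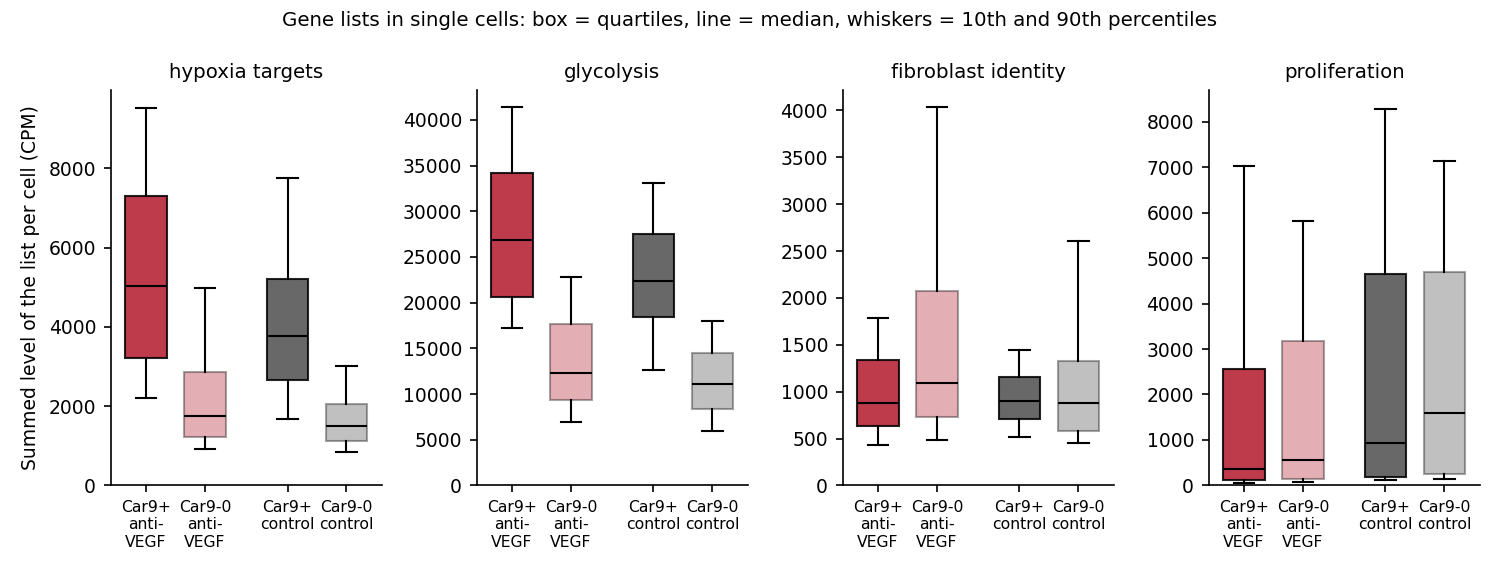
Summed CPM per cell (y axis) of 4 gene lists in Car9-positive and Car9-0 cells of the anti-VEGF and control libraries (x axis), with boxes at the quartiles, a line at the median and whiskers at the 10th and 90th percentiles. For the hypoxia list the medians are 5030 and 3759 CPM in anti-VEGF and control Car9-positive cells and 1744 and 1497 CPM in Car9-0 cells.

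Most collagens outside the rule and most fibroblast genes were lower in the Car9-positive cells when summed over the class, beside 47.8% of all genes below 1 in both libraries. Of 14 collagens outside the rule, 12 were measured, 10 were below 1 in both libraries and 1, Col6a2, was past 2-fold lower in both. Their median log2 ratio was -0.91 in the anti-VEGF and -0.54 in the control library. Of 10 measured fibroblast genes, 8 were below 1 in both libraries and 3 past 2-fold lower in both (Dcn, Dpt and C3), with medians of -1.57 and -0.86. Per cell the fibroblast list had medians of 874 and 1088 CPM in Car9-positive and Car9-0 cells of the anti-VEGF library and of 902 and 875 CPM in the control library, with 90th percentiles of 1783 and 4033 CPM and of 1449 and 2609 CPM, so in the control library the difference in the sums lay in the upper tail. Cd34 is on this list and went the other way, with per-cell medians of 420 and 312 CPM in Car9-positive and Car9-0 cells of the anti-VEGF library. In the control library they were 456 and 332 CPM. Per-cell sums of the list without Cd34 were not computed. The 17 genes listed as other matrix were split, with medians of -0.57 in the anti-VEGF and -0.04 in the control library, 10 below 1 and 4 above 1 in both, and a control median that changed sign under 6 alternatives. Beside this, cells with at least 5 Dcn and Lum UMIs were 10.9% and 5.56% of the Car9-positive cells and 22.7% and 18.1% of the Car9-0 cells in the anti-VEGF and control libraries.

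The collagen VI genes show the range. Col6a2 was at 34.7 and 117 CPM in Car9-positive and Car9-0 cells of the anti-VEGF library, 0.297-fold (0.266 to 0.332), and at 48.2 and 108 CPM in the control library, 0.449-fold (0.379 to 0.528). Col6a1 was at 113 and 255 CPM and at 141 and 245 CPM. Mgp, matrix Gla protein, an inhibitor of calcification, came first among the lower genes when ranked by the weaker of the 2 library ratios, 175 and 685 CPM, 0.255-fold (0.243 to 0.268), in the anti-VEGF library and 156 and 833 CPM, 0.188-fold (0.172 to 0.205), in the control library. Igfbp4, which binds insulin-like growth factors, was at 113 and 366 CPM and at 99.9 and 249 CPM.

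Proteoglycans and chemokines rested on fewer cells. Dcn was at 49.9 and 325 CPM in Car9-positive and Car9-0 cells of the anti-VEGF library and at 68.1 and 167 CPM in the control library, where 1 cell gave 67.5% of the Dcn UMIs of the Car9-positive class. Lum was at 4.05 and 121 CPM and at 26.1 and 51.1 CPM. Cxcl10, an interferon-induced chemokine, was at 62.3 and 159 CPM, 0.392-fold (0.36 to 0.427), and at 30.7 and 112 CPM, 0.275-fold (0.224 to 0.335), and was found in 18.03% of anti-VEGF and 33.3% of control Car9-positive cells. Ccl2, a monocyte attractant, was at 45.1 and 210 CPM and at 40.8 and 87.0 CPM, with 16.9% to 41.6% of its UMIs in each class from 1 cell.

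Restricting both classes to cells with at least 2 Msln UMIs left the hypoxia group in place and removed most of the matrix group. Under that restriction 21 genes were past 2-fold higher in both libraries, 14 of them from the original 20, and 8 past 2-fold lower, 6 of them from the original 41 (Cxcl10, Cilp, Fam213a, Igf2bp1, Mfap4 and Ptn, named after their values were seen except Cxcl10). Removing cells with at least 5 Dcn and Lum UMIs left 26 higher genes, 19 of them from the original 20, and 15 lower genes, 14 of them from the original 41. That removal was chosen after the data were seen. Col6a2 in the control library and Ccl2 in the anti-VEGF library were on the other side of 1 among Msln-positive cells, with log2 ratios of 0.12 and 0.32.

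Enzymes that modify collagen were mixed. The 14 measured genes of this list had medians of -0.31 and -0.23, with 4 above 1 and 8 below 1 in both libraries, near the 47.8% over all genes. P4ha1 and P4ha2, subunits of the collagen prolyl hydroxylase, were at 348 and 175 CPM and at 40.3 and 16.6 CPM in Car9-positive and Car9-0 cells of the anti-VEGF library, and at 304 and 150 CPM and 23.5 and 5.32 CPM in the control library. Plod2, a lysyl hydroxylase, was at 150 and 69.1 CPM and at 127 and 64.0 CPM. These 3 are also on the hypoxia list. Serpinh1, the collagen chaperone, was at 343 and 481 CPM and at 322 and 434 CPM, on the side of the collagens.

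Cell cycle genes differed little between the summed classes of a library. The 25 proliferation genes had median log2 ratios of -0.10 in the anti-VEGF and -0.06 in the control library, close to all genes, and none was past 2-fold. Cells with at least 5 UMIs of Mki67 and Top2a together made up 29.3% (24.1 to 34.8) of Car9-positive and 31.5% (25.2 to 38.4) of Car9-0 cells in the anti-VEGF library, and 40.3% (28.9 to 52.5) and 40.5% (34.2 to 47.0) in the control library. The intervals of the 2 classes overlapped in each library, which does not show that the shares are equal.

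Antigen presentation genes were lower by a small amount. Of 13 genes of the MHC class I pathway, all measured, 10 were below 1 in both libraries and none past 2-fold, with medians of -0.42 and -0.29, beside 47.8% below 1 in both and medians of -0.13 and -0.06 over all genes. H2-K1, a class I heavy chain, was at 889 and 1264 CPM in Car9-positive and Car9-0 cells of the anti-VEGF library, 0.703-fold (0.685 to 0.722), and at 1283 and 1617 CPM in the control library, 0.793-fold (0.768 to 0.820). Its partner B2m was at 984 and 1233 CPM and at 1235 and 1515 CPM. For 16 interferon response genes the libraries differed, with medians of -0.64 in the anti-VEGF and -0.10 in the control library and 10 below 1 in both, against 47.8% of all genes.

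Car9-positive cells of the anti-VEGF library were then set against those of the control library. Of 10494 genes measured, 133 (1.27%) were past 2-fold higher and 50 (0.476%) past 2-fold lower, and in Car9-0 cells 175 (1.60%) and 19 (0.174%) of 10925. Under TMM or median-of-ratios scaling the Car9-positive counts were 173 higher and 31 lower. With 1 library each, the antibody, the animals and the preparation cannot be told apart. Beside these counts, at least 3 C1q UMIs were found in 38.8% of anti-VEGF and 72.2% of control Car9-positive cells, and removing those cells left 180 and 20 cells with 334 genes past 2-fold higher and 250 past 2-fold lower. Those cells' part in the gene counts was not tested further.

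Hypoxia targets were higher in the anti-VEGF cells of both classes. In Car9-positive cells 25 of 29 measured were above 1 in anti-VEGF over control and 4 were past 2-fold, against 36.1% and 1.27% of all genes. The median log2 ratio was 0.46, beside -0.10 over all genes, and in Car9-0 cells the median was 0.35, beside -0.02. Ero1l had the highest ratio of the abundant members, 428 CPM in anti-VEGF and 165 CPM in control Car9-positive cells, 2.60-fold (2.39 to 2.84), and 131 and 62.9 CPM in Car9-0 cells, 2.08-fold (1.89 to 2.29). The other 3 past 2-fold, Lox, Loxl2 and Selenbp1, were under 6 CPM. Ankrd37 was at 165 and 83.3 CPM, 1.98-fold (1.75 to 2.24), Ndrg1 at 458 and 246 CPM, 1.86-fold (1.73 to 2.003), and Bnip3 at 672 and 489 CPM, 1.37-fold (1.30 to 1.45). Vegfa was at 149 and 139 CPM, 1.07-fold, with an interval of 0.967 to 1.18 that holds 1. Among cells of 15000 to 40000 UMIs (123 anti-VEGF and 26 control Car9-positive cells) the list median was 0.08. The log2 ratio of Ero1l was 0.44 there and 0.89 without cells of at least 3 C1q UMIs, against 1.37 as reported, so it was under 2-fold in both settings.

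Because the anti-VEGF cells carried more Car9 UMIs per cell, levels were also compared within bins of Car9 UMIs. The bins of 2 and of 3 to 5 UMIs were matched in Car9, 1.02-fold (0.677 to 1.56) and 1.03-fold (0.787 to 1.35). Among cells with exactly 2, 35 in the anti-VEGF and 19 in the control library, Ero1l was 3.54-fold (2.71 to 4.68), Ndrg1 2.4-fold (1.99 to 2.91), Bnip3 1.28-fold (1.12 to 1.48) and Ankrd37 1.15-fold (0.851 to 1.57). Among cells with 3 to 5, 62 and 19, Ero1l was 1.78-fold (1.498 to 2.13), Ndrg1 1.55-fold (1.31 to 1.83), Bnip3 1.35-fold (1.197 to 1.53) and Ankrd37 1.83-fold (1.37 to 2.48). Among cells with 6 or more, where Car9 itself was 1.21-fold (1.09 to 1.33), 197 in the anti-VEGF and 34 in the control library, Ero1l was at 492 and 207 CPM, 2.38-fold (2.13 to 2.65), Ankrd37 1.97-fold (1.68 to 2.32), Ndrg1 1.64-fold (1.502 to 1.80), Pgk1 1.29-fold (1.25 to 1.33) and Bnip3 1.21-fold (1.14 to 1.29). The ratios of Ero1l, Ndrg1 and Bnip3 were above 1 in all 3 bins with intervals above 1, and that of Ankrd37 in the upper pair of bins. In the bin of 2 UMIs, Ctsk stood at 558 and 27.6 CPM and Acp5 at 536 and 31.1 CPM in the anti-VEGF and control libraries. With 3 to 5 UMIs they were at 50.4 and 15.8 CPM and at 17.9 and 21.4 CPM. Ctsk and Acp5, described further on, drew much of their UMIs from 1 cell. The part of single cells in the ratios of the small bins was not tested. Vegfa kept no direction, at 1.82-fold (1.42 to 2.35) with 2 Car9 UMIs, 1.11-fold (0.871 to 1.42) with 3 to 5 and 0.860-fold (0.760 to 0.974) with 6 or more.

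Il33 had the highest ratio among the ranked genes of this comparison. Il33, a nuclear alarmin cytokine, was at 70.7 CPM in anti-VEGF and 9.19 CPM in control Car9-positive cells, 7.70-fold (5.42 to 11.3), and at 50.9 and 12.5 CPM in Car9-0 cells, 4.08-fold (3.36 to 4.98). An Il33 UMI was found in 50% of anti-VEGF and 18.1% of control Car9-positive cells. Mt1 was at 3651 and 1168 CPM, 3.13-fold (3.03 to 3.23), and its paralogue Mt2 at 971 and 327 CPM, 2.97-fold (2.80 to 3.16). In Car9-0 cells Mt1 was 2.45-fold and Mt2 2.43-fold higher, so the metallothioneins were higher in both classes. Tnfrsf9, the receptor 4-1BB, was at 78.2 and 27.0 CPM, 2.90-fold (2.35 to 3.62), and Thbs1, an inhibitor of angiogenesis, at 98.4 and 40.2 CPM, 2.45-fold (2.06 to 2.93).

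Of the other ranked genes, 4 drew a large share of their UMIs from 1 cell. Of the UMIs in anti-VEGF Car9-positive cells, 1 cell gave 48.6% for Ctsk, 53.5% for Acp5, 42.4% for Hmox1 and 49.4% for Mmp9, genes known from osteoclasts and macrophages. Ctsk was at 125 and 24.98 CPM in the anti-VEGF and control cells, Acp5 at 110 and 26.4 CPM, Hmox1 at 72.9 and 16.9 CPM and Mmp9 at 87.2 and 35.0 CPM. With each gene's highest cell left out of each class, an alternative added after the data were seen, the log2 ratios were 1.57 for Ctsk (2.28 as reported), 1.13 for Acp5 (2.02), 1.60 for Hmox1 (2.04) and 0.68 for Mmp9 (1.29), so Mmp9 was no longer past 2-fold. Among cells of 15000 to 40000 UMIs they were 0.06 for Ctsk, -0.04 for Acp5, 1.63 for Hmox1 and -0.38 for Mmp9. With at least 30 collagen UMIs they were 0.79, 0.12, 1.52 and -0.47. Of these genes only Hmox1 was past 2-fold in both settings. Mfap5, a microfibril protein, was at 106 and 42.2 CPM and Upp1, uridine phosphorylase, at 77.6 and 31.3 CPM in the anti-VEGF and control Car9-positive cells, without such a cell. Their log2 ratios were 1.31 and 1.28 as reported and 1.39 and 0.66 among cells of 15000 to 40000 UMIs. Without C1q cells they were 0.52 and 2.07.

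On the lower side, Atf3, a stress-induced transcription factor, was at 73.4 CPM in anti-VEGF and 214 CPM in control Car9-positive cells, 0.343-fold (0.311 to 0.377), and its log2 ratio was 0.21 once cells with C1q were removed. Hspa1b, an inducible heat shock chaperone, was at 298 and 597 CPM, 0.499-fold (0.473 to 0.526), and Ptgs2, cyclooxygenase 2, at 91.3 and 179 CPM, 0.510-fold (0.463 to 0.563). Without the C1q cells, which left 20 control cells, their log2 ratios were -0.11 and -0.39, against -0.9999 and -0.96 as reported, and among cells of 15000 to 40000 UMIs that of Ptgs2 was -0.27. Such genes also respond to tissue dissociation, and of 14 immediate early and dissociation genes 1 was above 1, with a median of -0.23, beside 36.1% above 1 and a median of -0.10 over all genes. Adarb1, an RNA editing enzyme, was at 20.6 and 51.7 CPM, 0.399-fold (0.330 to 0.484).

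Antigen presentation and cell cycle genes were lower in the anti-VEGF cells as groups. None of 13 MHC class I pathway genes was above 1 in Car9-positive cells (median log2 ratio -0.42), where 36.1% of all genes were, and 4 of 13 were in Car9-0 cells (median -0.24), where 45.3% of all genes were. Psmb9, an immunoproteasome subunit, was at 44.7 and 82.1 CPM in anti-VEGF and control Car9-positive cells, 0.545-fold (0.473 to 0.629), and at 54.9 and 80.2 CPM in Car9-0 cells. Of 25 proliferation genes 1 was above 1 in Car9-positive cells, against the same 36.1%, with medians of -0.44 in Car9-positive and -0.40 in Car9-0 cells. Mki67, the proliferation antigen, was at 165 and 224 CPM, 0.733-fold (0.676 to 0.796), and was found in 36.1% of anti-VEGF and 54.2% of control Car9-positive cells.

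Amino acid and endoplasmic reticulum stress genes were higher in both classes, 16 of 18 above 1 in each, against 36.1% of all genes in Car9-positive and 45.3% in Car9-0 cells, with medians of 0.43 in Car9-positive and 0.46 in Car9-0 cells. Atf5 was at 210 and 108 CPM in anti-VEGF and control Car9-positive cells, 1.95-fold (1.75 to 2.17), and Asns, asparagine synthetase, at 154 and 102 CPM, 1.51-fold (1.35 to 1.69). The fibroblast list differed between the classes, with a median of -0.06 over 10 measured genes in Car9-positive cells (0.06 under TMM scaling). In Car9-0 cells it was 1.03 over 14 measured genes, so the gene sets were not the same. Over the alternatives run the medians lay between -0.78 and 0.09 in Car9-positive and between 0.13 and 1.06 in Car9-0 cells. The interferon list differed too, with -0.18 over 16 genes and 0.45 over 17 genes. Whether those differences exceed the spread between animals was not tested.

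**Figure D5:**
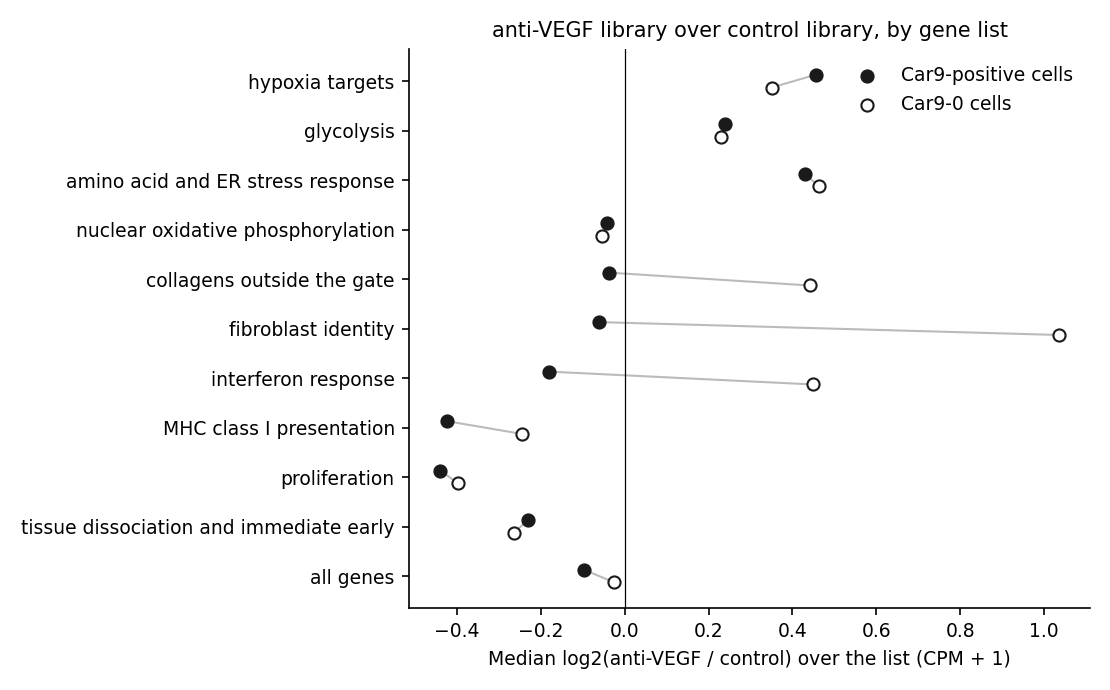
Median log2 ratio of anti-VEGF over control (x axis) over each of 10 gene lists and over all genes (y axis), in Car9-positive cells (filled) and Car9-0 cells (open). The hypoxia list is at 0.46 in Car9-positive and 0.35 in Car9-0 cells, the proliferation list at -0.44 and -0.40, and the fibroblast list at -0.06 (0.06 under TMM scaling) and 1.03. The fibroblast medians cover 10 measured genes in Car9-positive and 14 in Car9-0 cells.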

How the data were processed

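The authors deposited raw UMI counts for each library as a gene by barcode matrix. The submitters' processing notes name Cell Ranger 3.0.2 and mm10, and the matrix gives software version 3.1.0 per the file headers. The libraries held 8825 anti-VEGF and 11687 control barcodes, with 213948867 and 233687412 UMIs. Members and gene lists were chosen with earlier results of these data known. Within a library, UMIs were added up over the cells of a class and scaled to CPM. Ratios were put on the log2 scale with 1 CPM added, and past 2-fold means at least 1 or at most -1. No count model was fitted. Levels have exact Poisson intervals at 95%. Macrophage-gated cells served as the level in leukocytes. Named genes are list members, gate genes and the 12 highest and 12 lowest ratios among genes of at least 50 CPM in 10% of cells, without predicted, mitochondrial, ribosomal, haemoglobin, immunoglobulin, receptor, Xist and Y-linked genes. No doublet caller was run, and removing cells with at least 3 C1q UMIs was the alternative meant for doublets. It took out 38.8% of anti-VEGF and 72.2% of control Car9-positive cells. C1qa stood at 29.2 and 40.5 CPM in these classes, 0.806% and 0.885% of its macrophage-gate level. The removal cannot separate doublets from cells with free C1q RNA, so doublets were not tested. Genes with near-identical copies, such as Gapdh, are uncertain where reads could be split. Alternatives were another pseudocount, gene minimum, scaling (TMM from edgeR 4.0.16, median of ratios from DESeq2 1.42.0), depth, threshold and cell subset. Python 3.11.15, numpy 2.4.6, pandas 2.3.3, scipy 1.17.1, matplotlib 3.10.9 and R 4.3.3 were used. Steps were tested on simulated data. Cells outside the filter were not analysed here.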

Additional observations from a re-analysis of the deposited data

Results flagged for a closer look

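In 5 genes of the lists the classes or libraries pointed in opposite directions, at least 1 of the 2 past 2-fold and the exact 95% intervals of the 2 ratios on opposite sides of 1. The difference was not tested for any of them. Of the list genes measured, 64 of 294 had opposite signs in the 2 libraries for Car9-positive over Car9-0 cells, 14 of them with intervals on opposite sides of 1 and 2 of the 14 also past 2-fold in at least 1 library. For anti-VEGF over control, 90 of 298 had opposite signs in the 2 classes, 25 with intervals on opposite sides of 1 and 5 of the 25 also past 2-fold in at least 1 class.

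Cxcl5, a neutrophil-attracting chemokine, had a log2 ratio of Car9-positive over Car9-0 cells of -3.91 in the anti-VEGF library (5.21 and 92.6 CPM) and of 1.69 in the control library (25.8 and 7.34 CPM). In anti-VEGF over control it was at -2.11 in Car9-positive and at 3.49 in Car9-0 cells. Ifit1, an interferon-induced RNA-binding protein, was at -0.92 in the anti-VEGF library (10.4 and 20.6 CPM) and at 1.60 in the control library (28.1 and 8.63 CPM), and in anti-VEGF over control at -1.35 in Car9-positive and 1.17 in Car9-0 cells. Ifit3, of the same family, was at -0.69 in Car9-positive and 1.17 in Car9-0 cells. Lum was at -2.42 in Car9-positive cells, where 1 control cell gave 59.3% of its UMIs, and at 1.22 in Car9-0 cells. Loxl4 was at 1.33 in Car9-positive cells (4.42 and 1.15 CPM) and at -0.66 in Car9-0 cells (3.19 and 5.598 CPM).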

How the results depend on the processing

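The hypoxia medians of Car9-positive over Car9-0 cells stayed between 0.78 and 1.11 in the anti-VEGF and between 0.68 and 1.27 in the control library over all alternatives run, and the glycolysis medians between 0.86 and 1.08 and between 0.74 and 1.52, the last in cells of 15000 to 40000 UMIs (1.52). There the anti-VEGF over control hypoxia median of Car9-positive cells was 0.077. The Car9-positive share of the gate became 20.04%, 62.3% and 43.2% in the anti-VEGF library with cells thinned to 5000 UMIs, with at least 1 and with at least 4 Car9 UMIs, and 5.46%, 31.9% and 13.2% in the control library, which also had 14.9% without cells of at least 3 C1q UMIs. Higher genes in both libraries were 31 with at least 4 Car9 UMIs. TMM and median-of-ratios scaling moved the median of all genes for Car9-positive over Car9-0 cells in the anti-VEGF library to 0.0039 and 0.0084, and that for anti-VEGF over control in Car9-positive cells, -0.10 as reported, to 0.02 under both. No paired analysis was possible because each antibody had 1 library, and no library could be left out.

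Lower genes in both libraries were 18 with 5 CPM added, 24 with at least 100 UMIs, 73 by per-cell means, 154 in cells of 15000 to 40000 UMIs, 24 without C1q cells, 8 with at least 2 Msln UMIs and 15 without Dcn and Lum cells. For anti-VEGF over control in Car9-positive cells, higher genes were 30 with 5 CPM added, 54 with at least 100 UMIs, 201 thinned and 334 without C1q cells. Lower genes there were 11 with 5 CPM added, 96 with no minimum, 24 with at least 100 UMIs, 31 under each other scaling, 125 thinned, 79 by per-cell means, 77 with at least 4 Car9 UMIs, 156 at 15000 to 40000 UMIs, 250 without C1q cells and 30 without each gene's highest cell. In Car9-0 cells, higher genes were 83 with 5 CPM added, 91 with at least 100 UMIs, 110 thinned, 74 with at least 2 Msln UMIs and 80 without Dcn and Lum cells, and lower genes 5, 9, 53, 37 and 31 under the same settings, 56 at 15000 to 40000 UMIs and 42 without C1q cells. The 2 removals, of Dcn and Lum cells and of each gene's highest cell, were chosen after the data were seen, and the cause of these shifts was not tested.

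Of 90 ratios of 54 genes, 10 that were past 2-fold changed sign, at 12 values in all, and 3 under 2-fold changed sign once each. With at least 2 Msln UMIs, Car9-positive over Car9-0 was 0.32 for Ccl2, 1.75 for Mmp2 and 2.85 for Postn in the anti-VEGF library and 0.44 for C3, 0.12 for Col6a2 and 0.15 for Dpt in the control library. Ccl2 was at 0.28 in the control library with at least 1 Car9 UMI and at 0.13 in the anti-VEGF library without Dcn and Lum cells. For anti-VEGF over control in Car9-positive cells, Mmp9 was at -0.47 with at least 30 collagen UMIs and -0.38 at 15000 to 40000 UMIs, Acp5 at -0.037 there, and Atf3 at 0.21 without C1q cells. The 3 were Chka (anti-VEGF over control in Car9-positive cells) at 0.65 without C1q cells, and Lum and Col6a1 (Car9-positive over Car9-0, control library) at 0.37 and 0.05 with at least 2 Msln UMIs. Control Car9-positive cells limit these settings, 72 in all, 26 in that depth window and 20 without C1q cells.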
